A study of Mus musculus with 8 samples.

Results

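The Frizzled receptor family was read out in the RNA of mouse uterine stromal cells, as the 10 genes Fzd1 to Fzd10. The members were taken by gene symbol, and all 10 were listed among the 23420 gene symbols of the study. Of the 8 RNA libraries sequenced, 4 bear the label Erbb3f/f and 4 the label Erbb3d/d, each together with day 3. By convention, f stands for a floxed allele, one that Cre recombinase can cut out, and d for the allele once cut. Erbb3 encodes a receptor tyrosine kinase of the epidermal growth factor receptor family. The labels name no Cre line, strain, age or animal, give no event from which day 3 is counted, and do not say whether replicates came from separate animals, so p-values measure the spread between these libraries, which may be technical. The series title places the work in the study of how stromal Erbb3 affects the shape of uterine glands.

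Reads assigned to genes numbered from 8578575 to 12854367 per library, of which the 10 Frizzled genes took 10501 to 13904. Erbb3 itself was no lower under the label Erbb3d/d. It had 7.40, 10.6, 8.25 and 12.3 CPM (read counts scaled to a common library size) under the label Erbb3f/f (replicates 1 to 4) and 7.37, 14.3, 17.65 and 16.2 CPM under Erbb3d/d (replicates 1 to 4) (log2 fold change 0.53, SE 0.28, edgeR adjusted p = 0.485). Gene counts cannot show whether single exons are missing, so each direction below follows the labels only. All 14 stromal markers examined, among them Vim, Pdgfra, Hoxa10 and Col1a1, had reads in every library, and their summed level was 14439 to 18207 CPM in the libraries labelled Erbb3f/f and 12188 to 16543 CPM in those labelled Erbb3d/d. Markers of epithelium and smooth muscle were also read in every library and are given beside the results they touch. Across the genome, edgeR called 0 of 14598 tested genes (0%), with calls made at an adjusted p under 0.05. Before adjustment 1695 genes were under 0.05, and DESeq2 called 270. Without Erbb3d/d replicate 2, edgeR called 259.

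Frizzled proteins are membrane receptors for WNT ligands. A cysteine-rich domain outside the cell holds the lipid-bearing WNT, and the inner face of the receptor recruits the scaffold protein Dishevelled. With the co-receptors LRP5 or LRP6 this stabilises beta-catenin, which switches on target genes with TCF and LEF factors. Other Frizzled complexes, with receptors such as ROR2, act on cell polarity and movement instead. In the mouse uterus, WNT signalling between stroma and epithelium is known for its part in gland formation and in the response of the stroma to the embryo.

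The members share a short motif just inside the last membrane span that binds Dishevelled, and a search of the annotated coding sequences (GENCODE vM21, GRCm38) found it 1 time in each of the 10. The coding strand around it is shown for the 5 members with the highest level per length, 48 bases each and 5′ to 3′, because it is the part through which the receptors described here reach the same partner. Capitals mark the codons for the lysine, threonine and tryptophan that define the motif.
Fzd2: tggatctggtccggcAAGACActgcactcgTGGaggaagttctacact
Fzd1: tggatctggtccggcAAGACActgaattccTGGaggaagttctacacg
Fzd6: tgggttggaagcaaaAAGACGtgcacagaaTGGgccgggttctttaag
Fzd7: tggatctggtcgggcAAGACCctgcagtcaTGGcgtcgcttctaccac
Fzd10: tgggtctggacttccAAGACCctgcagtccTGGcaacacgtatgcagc
These stretches lie in coding exon at chr11:102606358-102606405 (plus strand), chr5:4755691-4755738 (minus strand), chr15:39033934-39033981 (plus strand), chr1:59484592-59484639 (plus strand) and chr5:128602781-128602828 (plus strand), in the order shown. Base by base, the stretch of Fzd7 equals that of Fzd10 at 34 of 48 positions, those of Fzd1 and Fzd2 at 30, and that of Fzd6 at 18. Behind the motif the coding sequence of Fzd1, Fzd2 and Fzd7 runs on for 17 codons and that of Fzd10 for 50, while Fzd6 has 206.

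Over the whole coding sequence, Fzd1 and Fzd2 had the same base at 82.7% of aligned positions, Fzd1 and Fzd7 at 78.8%, Fzd5 and Fzd8 at 76.8%, Fzd9 and Fzd10 at 72.6% and Fzd3 and Fzd6 at 66.7%. None of the 45 pairs of members shared a window of 50 bases, so a read of full length matches 1 member only. The values below are therefore separate measurements of each gene.

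The family was dominated by a pair of genes. Levels were compared between genes as CPM per kilobase of merged exon. Fzd2, a receptor much studied with WNT5A, had 113 ± 9.85 CPM per kilobase (SD, n = 4) in the libraries labelled Erbb3f/f, and Fzd1, its nearest relative, had 89.1 ± 3.97 CPM per kilobase (SD, n = 4). Together they made up most of the summed level per length, with Fzd2 at 41.9% ± 1.99 and Fzd1 at 33.2% ± 2.65 (SD, n = 4 each) in the libraries labelled Erbb3f/f. Over all 8 libraries the order was Fzd2, Fzd1, Fzd6, Fzd7, Fzd10, Fzd3, Fzd8, Fzd5, Fzd4 and Fzd9, from a mean of 103 down to 0.193 CPM per kilobase.

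Only 3 steps in that order were free of overlap between the neighbours' 8 values. Fzd1 lay 3.05 times above Fzd6, Fzd5 lay 1.85 times above Fzd4, and Fzd4 lay 10.2 times above Fzd9, each in 8 of 8 libraries. Fzd2 exceeded Fzd1 in 7 of 8 libraries and Fzd6 exceeded Fzd7 in 6 of 8. Fzd3 and Fzd8 were not separable, with Fzd3 the higher in 3 of 8. The place of Fzd10 depended on the library. Its level per length ranged from 3.93 CPM per kilobase in Erbb3f/f replicate 1 to 27.1 in Erbb3d/d replicate 4, so that it ranked between place 4 and place 7.

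**Figure D1:**
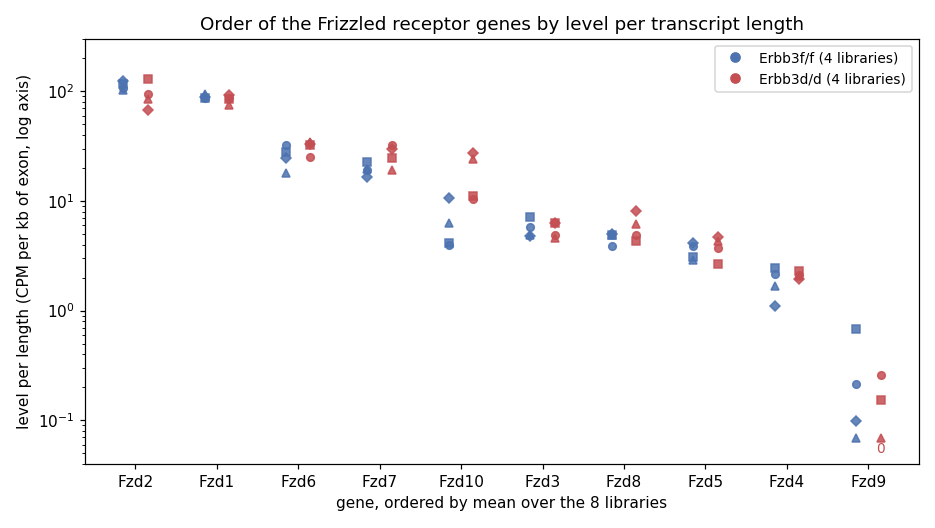
Level per length of the 10 Frizzled genes (y axis, CPM per kilobase of merged exon, log scale) by gene (x axis, ordered by the mean over all libraries), 1 point per library and a symbol per replicate as in the plot of values by library; a library with 0 reads is written as 0. Fzd2 and Fzd1 stand above the other members in every library, and Fzd10 spreads over the widest range of the members with a mean above 1 CPM per kilobase.

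No Frizzled gene was called different between the labels. Of the 10 members, 9 passed the filter on low counts, and edgeR called 0 of these 9, as it called 0% of all tested genes. At an unadjusted p under 0.05 there were 2 of 9, Fzd10 and Fzd7, both higher in the libraries labelled Erbb3d/d, beside 11.6% of all tested genes in either direction and 6.64% in that direction; 0 of 9 were lower at that p, beside 4.97%. The CPM values of the labels overlapped for 9 of 9, while 5.04% of tested genes had no overlap, 2.56% with the higher values under Erbb3d/d. A log2 fold change of at least 1 in size was seen for 1 of 9, beside 2.96%. The median log2 fold change of the 9 was 0.19 (6 higher, 3 lower), beside -0.01 over all tested genes. DESeq2 called 1 member, Fzd10, where it called 1.78% of the genes it adjusted, 1.39% as higher and 0.381% as lower. In bulk RNA, fewer cells of a type and less RNA per cell cannot be told apart.

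Fzd10 showed the largest difference of the family. FZD10 is a WNT receptor of the same branch as FZD9 and FZD4, with low expression in most adult tissues. The gene lies on chromosome 5 at 128600844 to 128604093 (GRCm38), on the plus strand, in 1 exon. It had 12.8, 13.4, 20.6 and 34.3 CPM in Erbb3f/f replicates 1 to 4, which rest on 131, 128, 262 and 303 reads. Erbb3d/d replicates 1 to 4 held 33.8, 35.8, 77.5 and 88.0 CPM, which rest on 344, 307, 984 and 1003 reads. Erbb3d/d replicates 3 and 4 were far above the rest, and 3 of the 4 libraries labelled Erbb3d/d exceeded the highest Erbb3f/f value. Erbb3d/d replicate 1 and Erbb3f/f replicate 4 lay side by side, which was the only overlap. The mean was 20.3 ± 9.99 CPM in the libraries labelled Erbb3f/f and 58.8 ± 28.0 CPM in those labelled Erbb3d/d (SD, n = 4 each).

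For Fzd10 the fitted log2 fold change was 1.54 (SE 0.42, 95% interval 0.59 to 2.49), or 2.92-fold (edgeR adjusted p = 0.284). In the same fit 0.404% of tested genes had a log2 fold change at least this high. With DESeq2 the log2 fold change was 1.55 (SE 0.37) and the adjusted p was 0.00499. Without Erbb3d/d replicates 3 and 4, the log2 fold change was 0.79 (SE 0.38, edgeR adjusted p = 0.9986). This alternative was chosen after the values were seen and takes out the highest Fzd10 values, so a smaller fold change follows from the choice.

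**Figure D2:**
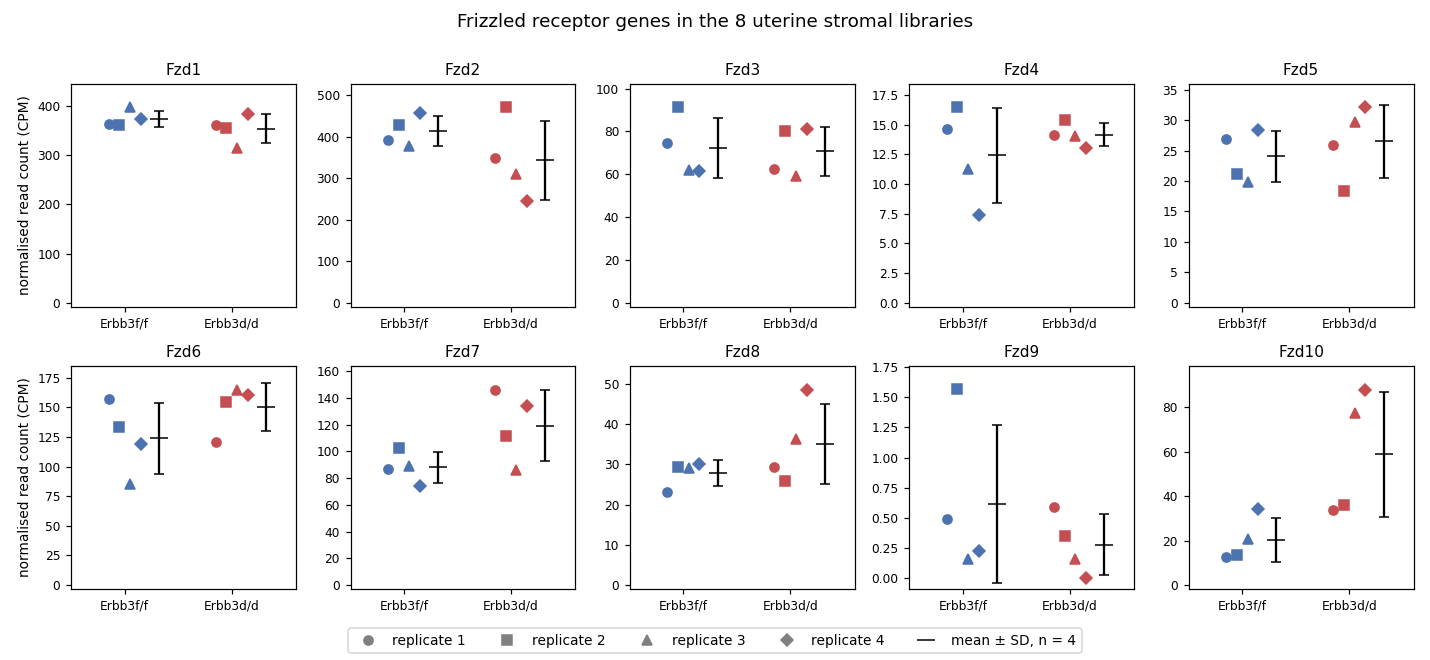
Normalised read count (y axis, CPM, linear, a separate scale per gene) of each Frizzled gene in the 4 libraries labelled Erbb3f/f and the 4 labelled Erbb3d/d (x axis); symbols mark replicates, and bars give mean ± SD (n = 4). Fzd10 runs from 12.8 to 34.3 CPM in the libraries labelled Erbb3f/f and from 33.8 to 88.0 CPM in those labelled Erbb3d/d, so that only 1 library of each label overlaps.

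Markers of epithelium and smooth muscle were also mostly higher under the label Erbb3d/d. Of 16 epithelial markers, all tested, 14 were higher under the label Erbb3d/d, 11 of them at an unadjusted p under 0.05 and none called by edgeR. DESeq2 called 4 of the 16, all higher, beside 1.39% of the genes it adjusted. The values of 3 did not overlap between the labels, all higher, beside 2.56% of tested genes. The summed level of the 16 was 999 to 1620 CPM in the libraries labelled Erbb3f/f and 1519 to 2487 CPM in those labelled Erbb3d/d, and none was at 0 in any library. The mean log2 CPM of these markers was 6.54 and 6.60 in Erbb3d/d replicates 3 and 4, the libraries with the most Fzd10, and 5.31 to 6.05 in the other 6. Among the other 6 the orders differed. Erbb3f/f replicate 3 had the lowest epithelial mean, 5.31, with 20.6 CPM of Fzd10. Erbb3f/f replicate 1 and Erbb3d/d replicate 1 had means of 5.89 and 5.88, with 12.8 and 33.8 CPM of Fzd10. Fitted with the epithelial mean as a covariate, Fzd10 had a log2 fold change of 0.74 (SE 0.48, edgeR adjusted p = 0.9997).

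Smooth muscle markers were higher for 11 of 12 genes, 11 of them at an unadjusted p under 0.05. DESeq2 called 3 of the 12, all higher, beside 1.39% of the genes it adjusted. The values of 3 did not overlap between the labels, also all higher, beside 2.56% of tested genes. The summed level of the 12 was 1885 to 3108 CPM in the libraries labelled Erbb3f/f and 2994 to 6271 CPM in those labelled Erbb3d/d, and none was at 0. Erbb3d/d replicate 1 had the highest smooth muscle mean, 8.30 log2 CPM, with 33.8 CPM of Fzd10. Fitted with the smooth muscle mean, Fzd10 had a log2 fold change of 2.23 (SE 0.57, edgeR adjusted p = 0.457). Among stromal markers 10 of 14 were lower in the libraries labelled Erbb3d/d, 5 of them at an unadjusted p under 0.05. Vim and Pdgfra are singled out here after their values were seen. They were the 2 of 14 that did not overlap between the labels, beside 5.04% of tested genes in either direction. They were also the 2 that DESeq2 called, both lower (adjusted p = 0.0498 and 0.00544), beside 0.381% of the genes it adjusted. Endothelial markers (12 of 14 higher) had a summed level of 332 to 647 CPM under Erbb3f/f and 352 to 684 CPM under Erbb3d/d. Immune markers (6 of 12 tested higher) had 1203 to 2785 and 1581 to 2040 CPM, with 1 of them at 0 in Erbb3f/f replicate 1. The epithelial mean was 5.74 ± 0.30 log2 CPM under Erbb3f/f and 6.27 ± 0.36 under Erbb3d/d (SD, n = 4 each). The smooth muscle mean was 6.79 ± 0.47 and 7.63 ± 0.51 log2 CPM. Because both were higher on average under Erbb3d/d, the covariate fits cannot tell label and cell make-up apart. The part of any of these cell types in the Fzd10 values was not tested.

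**Figure D3:**
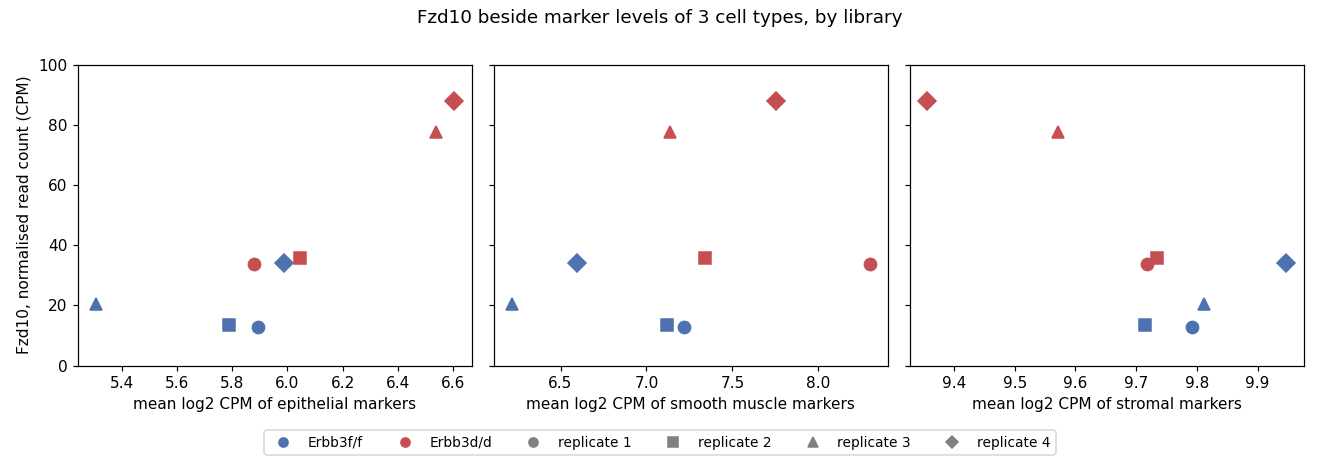
Fzd10 (y axis, CPM) against the mean log2 CPM of 16 epithelial, 12 smooth muscle and 14 stromal markers (x axes), 1 point per library, coloured by label with a symbol per replicate. The libraries with the most Fzd10, Erbb3d/d replicates 3 and 4, have the highest epithelial means, 6.54 and 6.60, while the highest smooth muscle mean, 8.30, belongs to Erbb3d/d replicate 1.

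Fzd1 and Fzd2, the members with the most reads, belong to 1 branch with Fzd7. Fzd7, a receptor known for its role in stem cells of the gut, lies on chromosome 1 at 59482424 to 59486955 in 1 exon. It had 86.7, 103, 88.9 and 74.2 CPM under the label Erbb3f/f (replicates 1 to 4) and 146, 111, 86.0 and 134 CPM under Erbb3d/d (replicates 1 to 4). Of the libraries labelled Erbb3d/d, 3 lay above all of those labelled Erbb3f/f, and replicate 3 lay among them. This gave a log2 fold change of 0.44 (SE 0.16, 95% interval 0.08 to 0.80, edgeR adjusted p = 0.352). With the smooth muscle mean as a covariate it was 0.08 (SE 0.19), and with the epithelial mean 0.60 (SE 0.21).

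Fzd2, on chromosome 11 at 102604396 to 102608058 in 1 exon, had 393, 427, 377 and 458 CPM under the label Erbb3f/f (replicates 1 to 4) and 348, 471, 310 and 245 CPM under Erbb3d/d (replicates 1 to 4). Of the libraries labelled Erbb3d/d, 3 lay below all of those labelled Erbb3f/f, and replicate 2 was the highest of all 8. Over all libraries the log2 fold change was -0.27 (SE 0.17, 95% interval -0.65 to 0.11, edgeR adjusted p = 0.568). Without Erbb3d/d replicate 2 it was -0.46 (SE 0.13, edgeR adjusted p = 0.0955). Without Erbb3d/d replicate 4 it was -0.13 (SE 0.15), and without Erbb3d/d replicates 3 and 4 it was -0.01 (SE 0.14). The latter removal was chosen after the values were seen and takes out the lowest Fzd2 values. The SD of Fzd2 was 27.7% of its mean under Erbb3d/d and 8.71% under Erbb3f/f, a difference in spread that was not tested.

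Fzd1, on chromosome 5 at 4753839 to 4758035 in 1 exon, varied least of the members among the libraries labelled Erbb3f/f, with an SD of 4.45% of its mean. It had 364, 361, 398 and 374 CPM under the label Erbb3f/f (replicates 1 to 4) and 362, 356, 315 and 385 CPM under Erbb3d/d (replicates 1 to 4), with Erbb3d/d replicate 3 the lowest. Its log2 fold change was -0.08 (SE 0.09, 95% interval -0.27 to 0.12, edgeR adjusted p = 0.770). That interval corresponds to a ratio between 0.826 and 1.09.

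Fzd3 and Fzd6 form the branch known for planar cell polarity, in hair patterning, axon growth and neural tube closure. Fzd6, on chromosome 15 at 39006034 to 39038188, had 157, 134, 85.6 and 119 CPM under the label Erbb3f/f (replicates 1 to 4) and 121, 154, 165 and 160 CPM under Erbb3d/d (replicates 1 to 4). The ranges overlapped, with Erbb3f/f replicate 3 the lowest library. For this gene the log2 fold change was 0.28 (SE 0.17, 95% interval -0.10 to 0.66, edgeR adjusted p = 0.553), and it was -0.07 (SE 0.17) with the epithelial mean as a covariate. Without Erbb3f/f replicate 3 it was 0.14 (SE 0.14). Erbb3f/f replicate 3 also had the lowest epithelial mean, 5.31 log2 CPM, and a link between this and its Fzd6 level was not tested. A small part of the exons of Fzd6 overlaps a non-coding gene on the other strand, and reads of the 2 strands could not be told apart in these non-directional libraries.

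Fzd3, on chromosome 14 at 65192449 to 65262463, had 74.6, 91.2, 62.0 and 61.4 CPM under the label Erbb3f/f (replicates 1 to 4) and 62.3, 80.0, 59.3 and 81.0 CPM under Erbb3d/d (replicates 1 to 4). Both labels held high and low libraries. Its log2 fold change was -0.03 (SE 0.15, 95% interval -0.37 to 0.31, edgeR adjusted p = 0.952), and its sign turned when Erbb3f/f replicate 2 (0.11) was left out, and likewise for replicates 1 (0.02) and 3 (0.05) under Erbb3d/d. Per length this gene was much lower than Fzd6, at 5.58 against 28.4 CPM per kilobase over all libraries (12804 and 4818 bases of merged exon).

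Fzd5 and Fzd8 are close relatives that signal with LRP5 and LRP6. Fzd8 had 23.2, 29.2, 29.1 and 30.1 CPM under the label Erbb3f/f (replicates 1 to 4) and 29.4, 25.8, 36.4 and 48.6 CPM under Erbb3d/d (replicates 1 to 4). Erbb3d/d replicates 3 and 4 lay above the other 6 libraries. The log2 fold change was 0.33 (SE 0.19, 95% interval -0.09 to 0.75, edgeR adjusted p = 0.527). Without those 2 libraries it was -0.01 (SE 0.17), a removal chosen after the values were seen that takes out the highest Fzd8 values. Without Erbb3d/d replicate 4 alone it was 0.14 (SE 0.16), and with the epithelial mean as a covariate 0.03 (SE 0.24).

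Fzd5, on chromosome 1 at 64730558 to 64737751, had 26.9, 21.2, 19.9 and 28.4 CPM under the label Erbb3f/f (replicates 1 to 4) and 25.9, 18.3, 29.7 and 32.1 CPM under Erbb3d/d (replicates 1 to 4). The labels overlapped, and the highest and the lowest library both carried the label Erbb3d/d. Fzd5 had a log2 fold change of 0.14 (SE 0.19, 95% interval -0.28 to 0.56, edgeR adjusted p = 0.804), and one of -0.21 (SE 0.21) with the epithelial mean as a covariate. It was 0.29 (SE 0.16) without Erbb3d/d replicate 2 and 0.04 (SE 0.20) without Erbb3d/d replicate 4. Part of its exons overlaps a provisional transcript on the other strand, so these counts are uncertain to that extent.

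Fzd4 and Fzd9 were the lowest members. Fzd4, the receptor of Norrin in blood vessel growth of the retina, lies on chromosome 7 at 89404355 to 89413134. It had 14.6, 16.4, 11.2 and 7.35 CPM under the label Erbb3f/f (replicates 1 to 4) and 14.15, 15.40, 14.03 and 12.98 CPM under Erbb3d/d (replicates 1 to 4). The libraries labelled Erbb3d/d all lay inside the range of the others. Its log2 fold change was 0.19 (SE 0.23, 95% interval -0.32 to 0.70, edgeR adjusted p = 0.791), and it was 0.01 (SE 0.19) without Erbb3f/f replicate 4 and 0.36 (SE 0.23) without Erbb3f/f replicate 2. Endothelial markers were lowest in Erbb3f/f replicate 4, with a mean of 3.64 log2 CPM, which was also the lowest library for Fzd4. The part of endothelial levels in the Fzd4 values was not tested.

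Fzd9, on chromosome 5 at 135248938 to 135251230 in 1 exon, did not pass the filter on low counts. Replicates 1 to 4 held 5, 15, 2 and 2 of its reads under the label Erbb3f/f, and 6, 3, 2 and 0 under Erbb3d/d. The 0 in Erbb3d/d replicate 4 allows a level of up to 0.263 CPM (3 reads, counting error only). A two-sided exact permutation test on log2(CPM + 0.5) gave p = 0.429, where the smallest p it can give is 0.0286. No difference was detected for Fzd9 with these few reads.

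**Figure D4:**
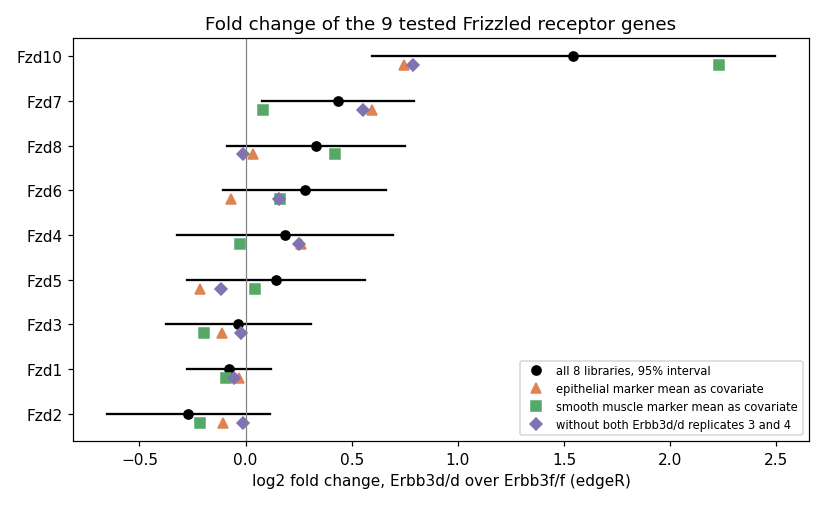
Log2 fold change of the 9 tested Frizzled genes (x axis, libraries labelled Erbb3d/d over Erbb3f/f, edgeR; y axis, gene). Black points and lines give the fit on all 8 libraries with its 95% interval. Triangles and squares give the fits that take the epithelial or the smooth muscle mean into account. Diamonds give the fit without Erbb3d/d replicates 3 and 4, chosen after the values were seen. The Fzd10 estimate is above 0 in all 4 fits, at 0.74 to 2.23. Its 95% interval includes 0 with the epithelial mean (-0.38 to 1.86) and without Erbb3d/d replicates 3 and 4 (-0.10 to 1.67).

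The family total differed between the labels by less than its SD, while its make-up varied from library to library. The summed level per length was 269 ± 11.1 CPM per kilobase in the libraries labelled Erbb3f/f and 271 ± 18.1 in those labelled Erbb3d/d (SD, n = 4 each). Fzd10 made up 1.48%, 1.497%, 2.48% and 3.75% of it under the label Erbb3f/f (replicates 1 to 4) and 3.93%, 3.71%, 9.39% and 10.05% under Erbb3d/d (replicates 1 to 4). Fzd2 made up 40.3% to 44.5% under Erbb3f/f and 35.8%, 43.3%, 33.3% and 24.8% under Erbb3d/d (replicates 1 to 4). The 3 members with the highest mean level, Fzd2, Fzd1 and Fzd6, together held 83.7% to 85.3% in the libraries labelled Erbb3f/f and 71.2% to 82.7% in those labelled Erbb3d/d. These shares are a description, and no test was made on a sum over the members.

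**Figure D5:**
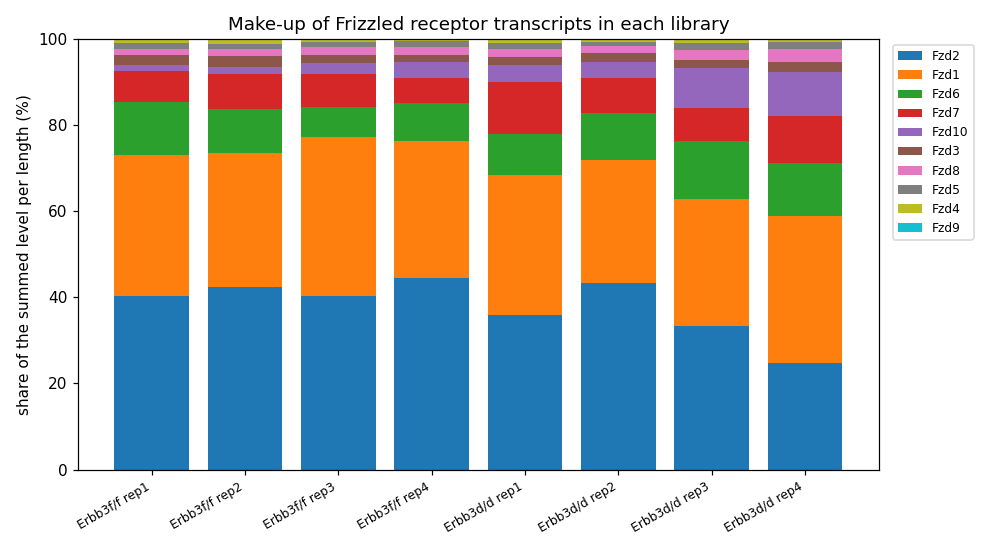
Share of the summed level per length (y axis, %) taken by each Frizzled gene in each library (x axis), stacked in order of the mean level. Fzd2 and Fzd1 fill most of every bar, and the band of Fzd10 is widest in Erbb3d/d replicates 3 and 4, at 9.39% and 10.05%.

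The 5 tested genes whose log2 CPM followed that of Fzd2 most closely were Map2k6, Casc4, Rasd2, Wdr43 and Trim35. Their Pearson correlations with Fzd2 over the 8 libraries were 0.9869, 0.9783, 0.9754, 0.9747 and 0.9743, with Spearman's rho between 0.952 and 1. They were picked as the highest among 14597 genes over 8 libraries that share depth and cell make-up, so these values are a description only.

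The other genes of the pathway were examined in 8 lists, and edgeR called 0 of their 65 tested genes. In sign, 37 were higher and 28 lower under the label Erbb3d/d. At an unadjusted p under 0.05, 10 of 65 were higher and 1 of 65 was lower, beside 6.64% and 4.97% of all tested genes. The median log2 fold change was 0.05, beside -0.01 over all tested genes.

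Of the 5 genes that set how much Frizzled stays at the cell surface, edgeR called 0. At an unadjusted p under 0.05, 4 of 5 were higher under the label Erbb3d/d, beside 6.64% of all tested genes, and the other, Lgr4, had a log2 fold change of 0.01 (SE 0.21). Their median log2 fold change was 0.78, beside -0.01 over all tested genes. Epithelial and smooth muscle markers were higher in the same libraries, 11 of 16 and 11 of 12 at that p, and their part in the values of this list was not tested. Rnf43 and Znrf3 encode the ubiquitin ligases that remove Frizzled from the membrane and are themselves WNT target genes. Rnf43 had 21.3, 34.9, 20.7 and 34.0 CPM under the label Erbb3f/f (replicates 1 to 4) and 37.1, 40.9, 54.4 and 57.1 CPM under Erbb3d/d (replicates 1 to 4), with no overlap. Its log2 fold change was 0.78 (SE 0.21, edgeR adjusted p = 0.281). That of Znrf3 was 0.25 (SE 0.10, edgeR adjusted p = 0.384).

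Lgr4, Lgr5 and Lgr6 encode the R-spondin receptors, which hold these ligases back. Lgr5 had 2.63, 7.85, 6.60 and 13.3 CPM under the label Erbb3f/f (replicates 1 to 4) and 16.8, 16.9, 29.5 and 22.1 CPM under Erbb3d/d (replicates 1 to 4), again with no overlap. Lgr5 had a log2 fold change of 1.499 (SE 0.40, edgeR adjusted p = 0.281). Lgr6, at 0.942 to 1.56 CPM against 2.10 to 5.12 CPM, had a log2 fold change of 1.65 (SE 0.38, edgeR adjusted p = 0.215). DESeq2 called Rnf43, Lgr5 and Lgr6 higher, with adjusted p-values of 0.0418, 0.0118 and 0.00914, beside 1.39% of the genes it adjusted. Without Erbb3d/d replicate 2, edgeR called Lgr6 (adjusted p = 0.0345), where it called 259 genes over the genome.

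Among feedback and target genes of the beta-catenin branch, 6 of 8 were higher, 3 of them at an unadjusted p under 0.05, beside 6.64% of all tested genes. The epithelial and smooth muscle markers were higher in these libraries too, and their part in the values of this list was not tested. Axin2, a feedback inhibitor widely used as a readout of the branch, had 157, 144, 217 and 208 CPM under the label Erbb3f/f (replicates 1 to 4) and 240, 253, 277 and 247 CPM under Erbb3d/d (replicates 1 to 4). The labels did not overlap, and the log2 fold change was 0.49 (SE 0.13, edgeR adjusted p = 0.280). Lef1, a transcription factor of the branch, went the other way with 140, 116, 110 and 89.7 CPM against 68.5, 115, 28.7 and 42.6 CPM (log2 fold change -0.85, SE 0.38, edgeR adjusted p = 0.432). Notum, a secreted enzyme that strips the lipid from WNT, is named after its values were seen. It had 6.62, 4.82, 11.3 and 19.1 CPM under the label Erbb3f/f (replicates 1 to 4) and 21.7, 20.2, 36.6 and 42.5 CPM under Erbb3d/d (replicates 1 to 4). Its log2 fold change was 1.54 (SE 0.42, edgeR adjusted p = 0.284, DESeq2 adjusted p = 0.0100). Like Fzd10 and the epithelial mean, it was highest in Erbb3d/d replicates 3 and 4.

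Of the co-receptors and alternative WNT receptors, 4 of 6 tested were higher. Ror2, which pairs with Frizzled on WNT5A, had 95.3, 84.9, 78.0 and 109 CPM under the label Erbb3f/f (replicates 1 to 4) and 124, 105, 178 and 135 CPM under Erbb3d/d (replicates 1 to 4). Ror2 had a log2 fold change of 0.57 (SE 0.16, edgeR adjusted p = 0.285). The others lay between -0.16 for Ptk7 and 0.17 for Lrp6, with 0.00 for Lrp5, -0.12 for Ror1 and 0.04 for Ryk, and SEs of 0.10 to 0.15. Of 13 transducers inside the cell, 10 were higher, with a median log2 fold change of 0.07, and 0 had an unadjusted p under 0.05. Ctnnb1, which encodes beta-catenin, had a log2 fold change of 0.17 (SE 0.10), and Dvl3, a Dishevelled gene, one of -0.08 (SE 0.13).

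Of 5 tested genes for proteins that act with or on a given Frizzled or co-receptor, 3 were higher. Gpc3, a glypican that binds WNT at the cell surface, had a log2 fold change of -0.64 (SE 0.19, edgeR adjusted p = 0.296), and Kremen1 one of 0.18 (SE 0.09). Planar polarity genes were lower for 6 of 9, with 0 at an unadjusted p under 0.05. Celsr2 had a log2 fold change of 0.55 (SE 0.29) and Daam2 one of -0.29 (SE 0.13). Other proteins with a Frizzled-type domain were lower for 5 of 5 tested, none at an unadjusted p under 0.05. Smo, the Hedgehog signal transducer of the same receptor class, had a log2 fold change of -0.18 (SE 0.12, edgeR adjusted p = 0.581). Sfrp2, a secreted competitor for WNT, is named here after its values were seen. Over all 8 libraries its log2 fold change was -0.37 (SE 0.26, edgeR adjusted p = 0.607), and the labels overlapped. Erbb3d/d replicate 2, at 836 CPM, was its highest library. Without that library edgeR called Sfrp2 lower (log2 fold change -0.70, adjusted p = 0.0395), where it called 259 genes over the genome.

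Among ligands and their secretion genes, 6 of 14 tested were higher and 8 lower. Wnt7a, a ligand made by uterine epithelium, had 20.6, 20.3, 34.2 and 71.0 CPM under the label Erbb3f/f (replicates 1 to 4) and 103, 60.8, 275 and 228 CPM under Erbb3d/d (replicates 1 to 4). As for Fzd10, Erbb3d/d replicates 3 and 4 were the highest libraries and Erbb3f/f replicate 4 was the highest of its label. The log2 fold change was 2.20 (SE 0.56, edgeR adjusted p = 0.279, DESeq2 adjusted p = 0.0421). Ndp, which encodes Norrin, the ligand of FZD4, had a log2 fold change of -0.92 (SE 0.45, edgeR adjusted p = 0.475). DESeq2 also called Wnt7b higher (adjusted p = 0.0260) and Wnt10a lower (adjusted p = 0.0396), both named after their values were seen. Wnt10a had 1 to 31 reads per library and was not tested in edgeR.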

How the data were processed

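Polyadenylated RNA of uterine stromal cells was sequenced from non-directional libraries as pairs of 150 bp, per the labels' protocols. The authors deposited raw read counts per gene symbol, 1 table per library, with no normalization. The submitters' processing notes name HISAT2, SAMtools, HTSeq and StringTie and the builds mm10 and GRCm38, with no version or role; annotation and counting options are not given in the sources used here. The 5 closing lines of each table that name no gene were left out, and the rows that name a gene held 27.0% to 29.1% of all entries. A further 48.3% to 50.8% of entries were listed as lying in no feature, so they entered no gene's count.

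The test was edgeR 4.0.16 under R 4.3.3 (filterByExpr, TMM, robust glmQLFit, glmQLFTest) on all 8 libraries with genotype as the only term. Benjamini-Hochberg adjustment ran over 14598 genes, with calls at an adjusted p under 0.05. CPM are read counts scaled by the TMM library size, and CPM per kilobase uses merged exons of GENCODE vM21. DESeq2 1.42.0 was the second tool. The scripts were tested on simulated data. Sequences and coding alignments came from GENCODE vM21 transcripts (Biopython 1.88).

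The members and lists were chosen with earlier results of these data known. Named were Erbb3, all 10 members, the co-receptors, the ligases, Lgr4, Lgr5, Axin2, Lef1 and Smo. Added to these was the gene with the smallest p in each direction of each pathway list. The 5 genes most like the member with the highest level per length were named as well. Any other gene given with its values is marked as chosen after its values were seen. The alternatives were other scalings, filters and covariates, DESeq2, a replicate block and leaving out each library. Leaving out Erbb3d/d replicates 3 and 4 together was added after the values were seen.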

Additional observations from a re-analysis of the deposited data

Results flagged for a closer look

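In the libraries labelled Erbb3f/f, Fzd8 in replicate 1 stood apart from the other 3, with 23.2 CPM against 29.1 to 30.1 CPM. It was the 1 value far from its group among 46 groups of 4 libraries examined (23 genes under 2 labels), where chance gives about 1 in 20, or 2.3.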

How the results depend on the processing

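The count of called genes over the genome was 0 except with DESeq2 (270), with the replicate number as a block (52) and when single libraries were left out (0 to 259, the latter without Erbb3d/d replicate 2). Called Frizzled members numbered 1 with DESeq2 and 1 with the replicate block (Fzd10 in both), and 0 in the other alternatives. Called pathway genes numbered 7 with DESeq2, 2 with the block (Notum and Wnt7a) and 0 to 2 with a library left out (Lgr6 and Sfrp2 without Erbb3d/d replicate 2). Fzd10 kept its direction in all alternatives run, with a log2 fold change of 1.55 in DESeq2, 1.53 (SE 0.13, adjusted p = 0.0101) with the replicate block, and 1.29 to 1.91 with a library left out. The block rests on replicate numbers alone. Deviations of same-numbered libraries from their group means correlated at 0.221, 0.159, 0.0959 and 0.145. Erbb3f/f replicates 1, 2 and 3 each correlated best with the Erbb3d/d library of the same number. Erbb3f/f replicate 4 correlated best with Erbb3d/d replicate 3 (0.302). The labels state no pairing and these correlations do not settle it, so the numbers were not taken to pair libraries. Signs turned for Fzd3 with a library left out (-0.10 to 0.11), Fzd4 with the smooth muscle covariate (-0.027), Fzd5 with the epithelial covariate (-0.21) and without Erbb3d/d replicates 3 and 4 (-0.11), Fzd6 with the epithelial covariate (-0.070) and Fzd8 without Erbb3d/d replicates 3 and 4 (-0.012); the cause was not tested. Fzd9 rests on 0 to 15 reads per library.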
